A study of Mus musculus with 18 samples.

Results

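Tumour necrosis factor (TNF) added to interferon-gamma (IFNg) was compared with IFNg by itself in cultured mouse macrophages. Of the 18 RNA sequencing libraries of the series, 6 entered this comparison: the 3 whose titles join IFNg and TNF, 1 of which spells it TNFa, and the 3 whose titles end in IFNg. The cells were bone-marrow-derived macrophages, grown from marrow precursors, labelled WT and treated for 18 h. Both groups received IFNg, so TNF was the only labelled difference between them, and no library of the series had TNF without IFNg. The labels give no dose, strain, sex or age. Nothing in them tells whether replicate libraries stem from different mice or dishes, and the p-values therefore reflect only the spread among these libraries, which may be technical. The other 12 libraries, 3 each of IFNg with lipopolysaccharide (LPS), IFNg with interleukin-1 beta (IL1b), IFNg with hypoxia and an untreated control, served for the levels in other conditions and for direct differences. Below, "with TNF" means IFNg with TNF and "IFNg alone" means IFNg without another addition.

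TNF binds receptors on the cell surface and assembles a complex of adaptor proteins, kinases and ubiquitin ligases beneath them. From there the IkappaB kinases free the transcription factor NF-kappaB, MAP kinases activate AP-1, and a death-inducing arm is held in check by genes that NF-kappaB itself turns on. IFNg signals through JAK kinases and STAT transcription factors, and macrophages given both cytokines are known for making nitric oxide and inflammatory mediators.

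The libraries held 20952799, 18901674 and 15495405 counts with TNF and 17568777, 16189396 and 14174365 with IFNg alone, and 3 counts in 1 library stood at 0.167 to 0.235 CPM with TNF and 0.156 to 0.205 CPM with IFNg alone. CPM is a gene's count scaled to the library's counts in tested genes and to its TMM factor. The summed level of 12 macrophage markers was 26500 to 28800 CPM with TNF and 22400 to 25700 CPM with IFNg alone. By the test described below, 3 of the 12 rose and 6 fell, with a median log2 fold change of -0.37. The sum includes Cd14, at 5037 to 5877 CPM with TNF and 142 to 151 CPM with IFNg alone. Csf1r, the receptor that keeps macrophages alive, was at 7756 ± 109 CPM with TNF and 4676 ± 422 CPM with IFNg alone (mean ± SD, n = 3). In these bulk libraries, fewer cells of one type and less RNA per cell cannot be told apart.

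Of 22598 genes in the tables, 11563 had enough counts to test. With TNF 2560 genes rose and 2614 fell relative to IFNg alone, or 22.1% and 22.6% of the genes tested and 44.7% together (edgeR quasi-likelihood test over all 18 libraries, Benjamini-Hochberg adjusted p under 0.05). Counts of rises and falls in the gene lists below are to be read beside these shares. At least 2-fold changes numbered 1339 higher and 1504 lower, which is 11.6% and 13.0%, or 24.6% together. The rises of at least 2-fold sat at a median level of 59.7 CPM with TNF and 15.3 CPM with IFNg alone. For the falls of that size the medians were 5.08 CPM with TNF and 20.2 CPM with IFNg alone. Changes of at least 16-fold were found for 225 genes upward and 241 downward. The 3 libraries of each group did not overlap for 6180 genes, or 53.4%. With another scaling, by the library totals that the deposited RPKM values imply, called RPKM totals below, the median log2 fold change of all tested genes was -0.369 in place of -0.049, a shift of -0.319. Under that scaling 1685 genes rose and 3985 fell, 14.6% and 34.5%, or 49.0% together. All 1685 were among the 2560, all 2614 lower genes were still lower, and 0 called genes turned round.

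**Figure D1:**
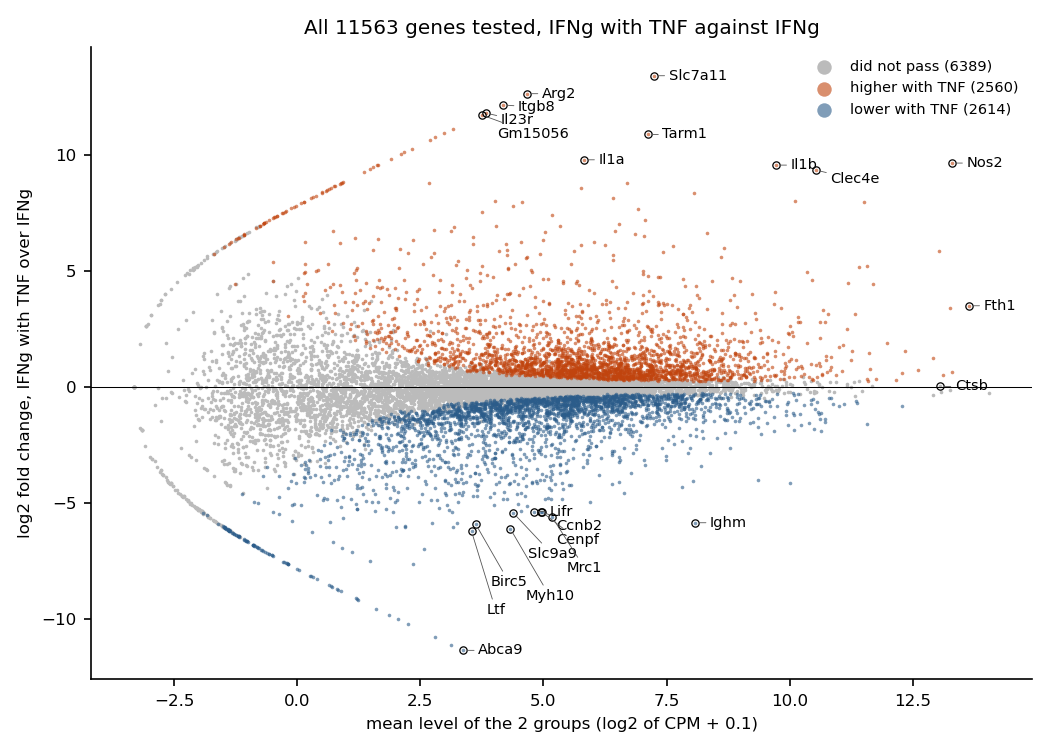
Log2 fold change of IFNg with TNF over IFNg (vertical axis) against the mean level of both groups (log2 of CPM + 0.1, horizontal axis) for 11563 genes, 1 point each; orange points rose, blue points fell, and grey points did not pass adjusted p under 0.05. The ringed genes are the 10 largest rises and 10 largest falls together with Fth1, which took the most counts with TNF, and Ctsb, which did not pass; the curved edges are genes with 0 counts in 1 group.

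The 10 largest rises among genes of at least 20 CPM were Slc7a11, Arg2, Itgb8, Il23r, Gm15056, Tarm1, Il1a, Nos2, Il1b and Clec4e; positions are those of GENCODE M21 on GRCm38. Arg2 (ENSMUSG00000021125, chromosome 12, 79130777 to 79156301), the mitochondrial arginase, had 63.1, 46.9 and 42.1 CPM with TNF and 0 counts with IFNg alone, at least 858-fold higher (3 counts over the IFNg group, adjusted p = 3.66e-08). Itgb8 (ENSMUSG00000025321, chromosome 12, 119158022 to 119238802), an integrin chain that activates latent TGF-beta, had 43.3, 41.5 and 23.6 CPM with TNF and 0 counts with IFNg alone, at least 612-fold higher (adjusted p = 1.85e-08). Il23r (ENSMUSG00000049093, chromosome 6, 67422932 to 67491855), a chain of the receptor for interleukin-23, had 30.3, 32.1 and 22.5 CPM with TNF and again 0 counts with IFNg alone, at least 479.6-fold higher. All 3 genes were therefore read in every TNF library and in no IFNg library. Tarm1 (ENSMUSG00000053338, chromosome 7, 3486500 to 3502624), an activating receptor of myeloid cells, had 264, 305 and 264 CPM with TNF, against 0.208, 0 and 0.205 CPM with IFNg alone. The cytokine gene Il1a had 115, 117 and 106 CPM with TNF, against 0.156, 0 and 0.205 CPM with IFNg alone. Both genes had at most a few counts per library with IFNg alone. Slc7a11, the cystine importer, had 274, 345 and 292 CPM with TNF and 1 count in all with IFNg alone, a ratio of 15400 with a 95% counting interval of 2750 to 606000. Gm15056, a predicted gene, had 16.3, 21.6 and 42.4 CPM with TNF and 0 counts with IFNg alone.

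The 10 largest falls among genes of at least 20 CPM were Abca9, Ltf, Myh10, Birc5, Ighm, Mrc1, Slc9a9, Cenpf, Ccnb2 and Lifr. Lifr (ENSMUSG00000054263, chromosome 15, 7090614 to 7197489), the receptor for leukaemia inhibitory factor, had 1.83, 1.58 and 0.393 CPM with TNF, against 49.8, 59.7 and 55.1 CPM with IFNg alone (log2 fold change -5.37 ± 0.29, with its standard error, the form used for all values with ± that name no CPM; adjusted p = 1.79e-14). Myh10 (ENSMUSG00000020900, chromosome 11, 68691559 to 68816632), a non-muscle myosin heavy chain, had 0.500, 1.12 and 0 CPM with TNF, against 43.8, 37.1 and 37.5 CPM with IFNg alone (-6.12 ± 0.62, adjusted p = 2.93e-07). Slc9a9 (ENSMUSG00000031129, chromosome 9, 94669909 to 95230445), an endosomal sodium-proton exchanger, had 1.67, 0.986 and 0 CPM with TNF, against 46.1, 41.6 and 33.9 CPM with IFNg alone (-5.41 ± 0.49, adjusted p = 2.41e-08). In each of these 3 genes the highest TNF library lay far below the lowest IFNg library. Mrc1, the mannose receptor, had 1.83, 2.04 and 0.235 CPM with TNF, against 74.9, 52.4 and 85.6 CPM with IFNg alone (-5.62 ± 0.39). The mitotic genes Ccnb2, Cenpf and Birc5 fell by more than 5 on the log2 scale (-5.37 ± 0.42, -5.38 ± 0.51 and -5.92 ± 0.51). Abca9, an ABC transporter, had 0 counts in all TNF libraries and 16.8, 21.5 and 23.3 CPM with IFNg alone, at least 315-fold lower.

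**Figure D2:**
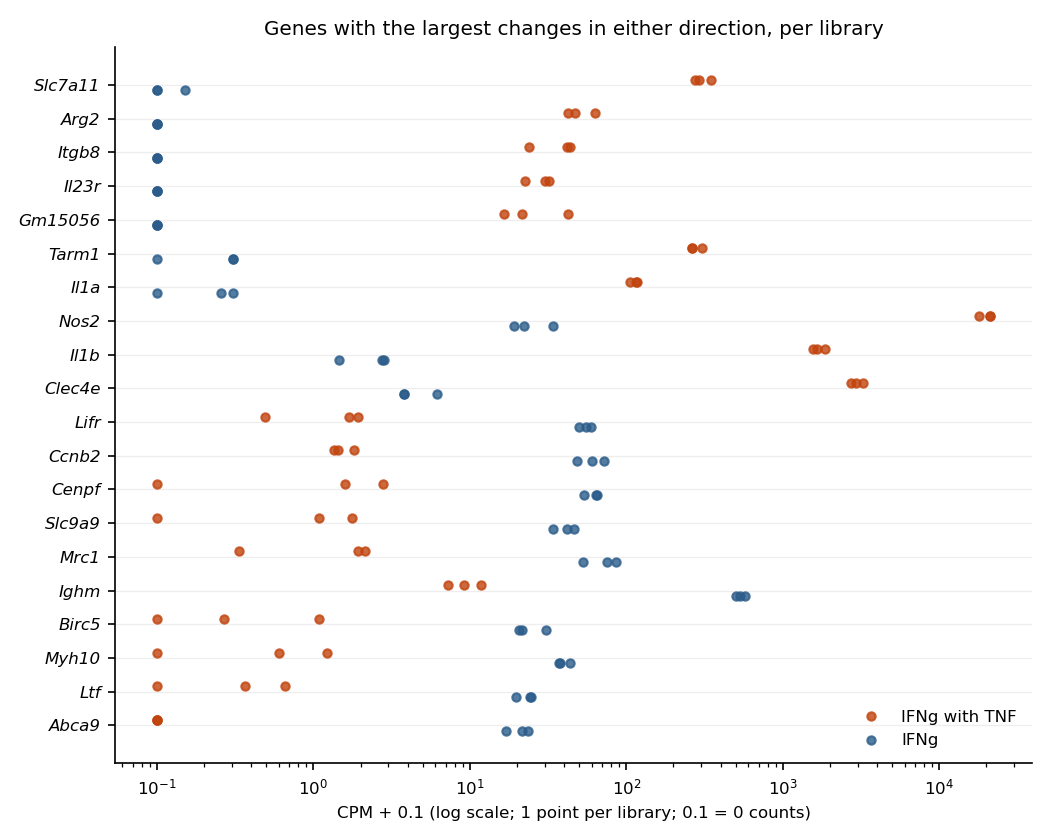
Level of the 10 largest rises and the 10 largest falls in each library, as CPM + 0.1 on a log scale, with IFNg with TNF in orange above IFNg in blue; a point at 0.1 has 0 counts. The groups do not overlap for any of the 20 genes, a condition of the rule that chose them, and the TNF libraries of Nos2 stand at 18055 to 21178 CPM.

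In all, 21 genes had at least 30 counts in every TNF library and 0 in every IFNg library, and 15 genes had the reverse. Among the 21 were Tnfrsf9, the receptor 4-1BB, at least 217-fold higher, and Ak4, a mitochondrial adenylate kinase, at least 148-fold higher. Among the 15 were Rasgrp3, an activator of Ras, at least 265-fold lower, and Ramp1, a partner of the receptor for calcitonin gene-related peptide, at least 209-fold lower. Slco2b1, an organic anion transporter, was at least 142-fold lower and Exo1, a DNA repair nuclease, at least 109-fold lower.

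Of 29 genes for TNF, its receptors and their signalling complex, all tested, 16 rose and 5 fell, with a median log2 fold change of 0.56, beside -0.049 over all genes tested. The lower count was 2 without the first IFNg or the third TNF library and 3 without the second TNF, second IFNg or the third IFNg library. Tnf itself had 206, 168 and 103 CPM with TNF, against 29.4, 26.6 and 23.4 CPM with IFNg alone (2.59 ± 0.22, adjusted p = 2.16e-10), so every TNF library was above every IFNg library. The receptor gene Tnfrsf1b had 794, 752 and 965 CPM with TNF, against 167, 237 and 232 CPM with IFNg alone (1.98 ± 0.17). Tnfrsf1a, the receptor with the death domain, had 669, 583 and 663 CPM with TNF, against 391, 477 and 440 CPM with IFNg alone (0.55 ± 0.13, adjusted p = 0.000749). Its groups did not overlap either, but the change was 0.23 (adjusted p = 0.114) with RPKM totals. Adam17, the protease that sheds TNF from the membrane, rose by 1.26 ± 0.10.

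Adaptor and feedback genes of the complex changed as well. Traf1 (ENSMUSG00000026875, chromosome 2, 34941750 to 34961772), an adaptor that NF-kappaB turns on, had 503, 369.9 and 472 CPM with TNF, against 20.01, 17.4 and 27.3 CPM with IFNg alone (4.38 ± 0.30, adjusted p = 1.21e-09). Tnfaip3 (ENSMUSG00000019850, chromosome 10, 19000910 to 19015657), which encodes the ubiquitin-editing inhibitor A20, had 453, 500.3 and 416 CPM with TNF, against 37.7, 48.98 and 42.8 CPM with IFNg alone (3.40 ± 0.14, adjusted p = 1.39e-16). Tnip1, an A20 partner, had 451, 602 and 507 CPM with TNF, against 94.7, 84.8 and 92.5 CPM with IFNg alone (2.52 ± 0.13). For these 3 genes the lowest TNF library was several-fold above the highest IFNg library. The ubiquitin ligase genes Birc3 (2.07 ± 0.14) and Traf2 (1.54 ± 0.19) rose, as did Ikbkg (1.23 ± 0.21), the regulatory subunit of the IkappaB kinase. The kinase genes Ripk1 (0.23 ± 0.12, adjusted p = 0.136) and Map3k7 (0.09 ± 0.18) and the adaptor gene Tradd (-0.0 ± 0.28) did not pass the test. Otulin, which removes linear ubiquitin chains, fell to 26.4 ± 3.06 CPM with TNF, against 65.98 ± 8.39 CPM with IFNg alone (-1.32 ± 0.15).

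Of 12 NF-kappaB subunit and inhibitor genes, 11 rose and 0 fell (median 1.59). None fell at an unadjusted p under 0.05 or in DESeq2 either, and 7 rose with RPKM totals. Of the subunits, Relb (2.58 ± 0.21), Nfkb2 (2.45 ± 0.14) and Rela (1.67 ± 0.13) rose most, and Rel did not pass (0.21 ± 0.19, adjusted p = 0.406). Nfkb1 was at 0.26 ± 0.10 (adjusted p = 0.0311) and at -0.06 with RPKM totals, and its adjusted p was 0.0524 to 0.139 without the first or second TNF library or the second or the third IFNg library. Among the inhibitors, Nfkbie (ENSMUSG00000023947, chromosome 17, 45555703 to 45563169), IkappaB-epsilon, had 311, 291 and 334 CPM with TNF, against 10.8, 14.4 and 9.09 CPM with IFNg alone (4.77 ± 0.30, adjusted p = 4.99e-11). Nfkbia, IkappaB-alpha, had 469, 346 and 420 CPM with TNF, against 54.8, 48.8 and 36.8 CPM with IFNg alone (3.14 ± 0.17). Bcl3, a nuclear partner of the p50 and p52 subunits, rose by 1.95 ± 0.17. For both inhibitors the TNF libraries lay several-fold above the IFNg libraries.

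Stretches of the RefSeq promoters (GRCm38.p6) of genes that rose in these 2 lists are shown because they carry a match to the NF-kappaB motif, given in capitals. They run 5′ to 3′ on the gene's strand: the Tnfaip3 stretch is chr10:19015501-19015550 (minus strand), Tnip1 chr11:54962964-54963013 (minus), Nfkb2 chr19:46304683-46304732 (plus), Nfkbia chr12:55492648-55492697 (minus) and Nfkbie chr17:45555579-45555628 (plus).
Tnfaip3: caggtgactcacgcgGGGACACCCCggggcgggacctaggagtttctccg
Tnip1: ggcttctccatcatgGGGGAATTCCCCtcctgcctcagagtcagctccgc
Nfkb2: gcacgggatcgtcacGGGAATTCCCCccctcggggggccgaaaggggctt
Nfkbia: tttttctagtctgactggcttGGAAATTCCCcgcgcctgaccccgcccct
Nfkbie: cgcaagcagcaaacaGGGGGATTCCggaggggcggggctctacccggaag
Of the 41 tested genes of both lists, 34 had a promoter in the table, a window of 250 bases before to 50 after the start. Within the 250 bases before the start, the motif was found on either strand in 8 of 24 that rose and in 3 of the 10 others. Over the same bases it was found in 10.5% of the 9180 promoters of tested genes. A match describes the letters and not a bound site.

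Genes that set whether TNF kills a cell counted 8 higher and 2 lower of 26 tested (33 in the tables, median 0.34). The 8 and 2 are 30.8% and 7.69%, beside 22.1% and 22.6% of all genes tested. With RPKM totals 6 rose and 4 fell. In the main scaling 1 fell without the first or the third TNF or the second or the third IFNg library. Cflar, the inhibitor of caspase-8, had 244, 225 and 239 CPM with TNF, against 29.6, 40.4 and 43.5 CPM with IFNg alone (2.64 ± 0.16, adjusted p = 3.41e-13), and the groups were well apart. The death receptor gene Fas rose by 2.56 ± 0.21. Ripk3 (0.76 ± 0.12) and Mlkl (0.73 ± 0.12), which carry out necroptosis, rose by less, and so did Casp8 (0.53 ± 0.12; 0.21, adjusted p = 0.194, with RPKM totals). Bmf, a pro-apoptotic BCL2 relative, fell (-3.21 ± 0.56). Bax (0.15 ± 0.20) and Bcl2l1 (0.19 ± 0.17) did not pass the test.

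Among AP-1, Egr, Klf and Myc factors 16 rose and 1 fell of 27 tested (median 1.23), and 2 fell without the second TNF library. Mxd1, which opposes Myc at DNA, had 106, 155 and 167 CPM with TNF, against 9.28, 11.4 and 10.6 CPM with IFNg alone (3.78 ± 0.23). Fosl2 (3.62 ± 0.26), Junb (2.62 ± 0.26) and Fos (1.65 ± 0.15) of AP-1 and the factor Klf4 (2.57 ± 0.20) rose, while Klf2, which restrains inflammatory genes, fell to 6.43 ± 0.847 CPM with TNF, against 27.9 ± 4.62 CPM with IFNg alone (-2.11 ± 0.23). Myc was at 0.17 ± 0.56 and did not pass. Phosphatases of MAP kinases and factors of mRNA decay counted 12 higher and 5 lower of 19 tested (median 1.97), or 9 and 6 with RPKM totals. Dusp1, which switches off p38 and JNK, had 237, 237 and 249 CPM with TNF, against 20.8, 18.8 and 18.2 CPM with IFNg alone (3.64 ± 0.17, adjusted p = 1.34e-15). Its TNF libraries differed little among themselves and lay far above the IFNg libraries. Zfp36, the protein that destabilises the Tnf mRNA, rose by 1.97 ± 0.13, and N4bp1, an RNA-degrading inhibitor of NF-kappaB signalling, by 2.19 ± 0.12. Dusp10 (-1.28 ± 0.24) and Dusp22 (-1.56 ± 0.26) fell.

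On the interferon side 16 genes of receptors, JAK, STAT and SOCS proteins rose and 4 fell of 29 tested (median 0.44), or 10 and 8 with RPKM totals. Ifngr1, the chain that binds IFNg, had 107, 138 and 111 CPM with TNF, against 261, 285 and 262 CPM with IFNg alone (-1.18 ± 0.12, adjusted p = 3.58e-09), with every TNF library lower. Ifngr2, the other chain, rose by 0.73 ± 0.10, and Jak2, the kinase bound to it, had 512, 575 and 524 CPM with TNF, against 156, 178 and 177 CPM with IFNg alone (1.66 ± 0.13). The feedback inhibitors Cish (4.37 ± 0.41) and Socs3 rose, Socs3 to 106, 108 and 85.8 CPM with TNF, against 11.3, 12.5 and 6.83 CPM with IFNg alone (3.29 ± 0.25). Socs1 did not pass (0.99 ± 0.47, adjusted p = 0.0957), but did without the second TNF library (1.29, adjusted p = 0.0392) or the second IFNg library (1.6, adjusted p = 0.017). Stat4, better known from lymphocytes, rose to 26.4 ± 3.90 CPM with TNF, against 2.16 ± 0.354 CPM with IFNg alone (3.60 ± 0.38), and Stat5a fell (-1.56 ± 0.21). In the interferon regulatory factor list 4 genes rose and 0 fell of 11 tested (median 0.00), or 3 and 4 with RPKM totals. None fell at an unadjusted p under 0.05 or in DESeq2. The list also holds Irf2bp2, an IRF2-binding protein and not such a factor itself, which is among the 4 that rose (1.27). Irf7 was at 1.17 ± 0.14 and Irf1 at 0.93 ± 0.10, while Irf8 did not pass (-0.06 ± 0.11) and was lower with RPKM totals (-0.38, adjusted p = 0.00348).

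Transcription factors of the macrophage lineage split, with 13 higher and 10 lower of 31 tested (median 0.07), or 10 and 12 with RPKM totals. Bhlhe40, a factor that sustains inflammatory cytokines, had 165, 182 and 152 CPM with TNF, against 4.27, 2.53 and 2.73 CPM with IFNg alone (5.69 ± 0.31, adjusted p = 3.44e-13). Runx3 (4.27 ± 0.41), Nr1h3, the sterol receptor LXR-alpha (2.57 ± 0.19), and Mitf (1.57 ± 0.15) rose too. Pparg, a lipid-sensing nuclear receptor, had 3.67, 5.98 and 12.5 CPM with TNF, against 61.1, 90.7 and 66.3 CPM with IFNg alone (-3.33 ± 0.33, adjusted p = 9.87e-08). Bhlhe40 and Pparg were separated between the groups in opposite directions. Maf (-1.27 ± 0.22), Mef2c (-2.06 ± 0.23) and Ikzf1 (-1.21 ± 0.13) fell, while Spi1, which encodes the lineage factor PU.1, did not pass (0.07 ± 0.11).

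In the IL-1 family 10 genes rose and 0 fell of 15 tested (median 0.84). None fell at an unadjusted p under 0.05 or in DESeq2, but 1 fell and 8 rose with RPKM totals, and 2 fell without the second TNF library. The cytokine Il1b had 1865, 1554 and 1643 CPM with TNF, against 1.35, 2.65 and 2.73 CPM with IFNg alone (9.57 ± 0.47, adjusted p = 9.84e-11). Il1rn, the natural antagonist of the IL-1 receptor, had 603, 1037 and 763 CPM with TNF, against 11.1, 13.4 and 13.2 CPM with IFNg alone (5.99 ± 0.29). Agonists and antagonist were thus both higher in every TNF library. Nlrp3, the inflammasome sensor that leads to IL-1 beta release, rose by 2.34 ± 0.11.

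In the IL-6, IL-12 and IL-10 families 5 genes rose and 7 fell of 15 tested (21 in the tables; median -0.47). All 5 encode cytokines or their subunits. Il6 had 23.1, 12.8 and 16.9 CPM with TNF and 0 counts with IFNg alone, at least 298-fold higher. Il12b had 5.95, 10.2 and 5.57 CPM with TNF and 0 counts with IFNg alone, at least 122-fold higher. Osm was at 3.97 ± 0.47, Ebi3 at 1.01 ± 0.16 and Il27 at 1.69 ± 0.60. The adjusted p of Il27 was 0.0894 to 0.0935 without the first TNF or the second or the third IFNg library. With all libraries it was 0.0666 with RPKM totals and 0.0696 with no filter on low counts. Of the 7 that fell, 6 encode receptor chains, among them Il6ra (-1.71 ± 0.13), Il6st, the shared signalling chain gp130 (-1.11 ± 0.16), Il12rb1 (-1.33 ± 0.20) and Il12rb2 (-1.65 ± 0.14). Il10, the anti-inflammatory cytokine, was low with IFNg alone and fell to 0.194 ± 0.246 CPM with TNF, against 5.81 ± 3.12 CPM with IFNg alone (-4.93 ± 1.03).

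Growth factor genes counted 8 higher and 5 lower of 24 tested (33 in the tables, median 0.59), or 8 and 8 with RPKM totals. The 8 and 5 are 33.3% and 20.8%, beside 22.1% and 22.6% of all genes tested. Thbs1, the matrix protein thrombospondin-1, had 1923, 2868 and 2863 CPM with TNF, against 71.2, 89.5 and 83.5 CPM with IFNg alone (4.97 ± 0.16, adjusted p = 9.29e-19). Inhba, a subunit of activin A, rose to 79.8 ± 8.48 CPM with TNF, against 0.653 ± 0.712 CPM with IFNg alone (6.94 ± 0.95), and Vegfa, the angiogenic factor, to 213 ± 22.97 CPM, against 12.7 ± 2.44 CPM with IFNg alone. Hgf, the hepatocyte growth factor, fell (-3.07 ± 0.26), and so did Gdf3, of the TGF-beta family (-1.55 ± 0.17), Tgfbi (-1.53 ± 0.11) and Spp1 (-1.28 ± 0.14). The groups were separate for each of these genes.

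Receptors that steer migration counted 10 higher and 8 lower of 26 tested (median 0.21), or 8 and 11 with RPKM totals. Fpr2, a receptor for formyl peptides, had 253, 182 and 257 CPM with TNF, against 2.35, 1.71 and 3.08 CPM with IFNg alone (6.61 ± 0.33, adjusted p = 2.78e-13). Ccr7, which guides cells to lymph nodes, rose to 37.5 ± 8.25 CPM with TNF, against 1.14 ± 1.45 CPM with IFNg alone (5.08 ± 0.64), and Ccrl2, a receptor that presents chemerin, rose by 3.96 ± 0.16. Ccr2, which draws monocytes out of the marrow, had 22.9, 28.9 and 38.7 CPM with TNF, against 464, 527 and 499.6 CPM with IFNg alone (-4.05 ± 0.21, adjusted p = 8.65e-13). Fpr2 and Ccr2 therefore stood apart between the groups in opposite directions. Cxcr3 (-4.94 ± 0.54) fell as well.

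Arginine and nitric oxide genes counted 8 higher and 4 lower of 19 tested (23 in the tables; median 0.60). Nos2, the inducible nitric oxide synthase, had 18055, 21073 and 21178 CPM with TNF, against 19.02, 22.1 and 33.6 CPM with IFNg alone, and took 1.55 to 1.74% of all counts with TNF and 0.00208 to 0.00347% with IFNg alone. Slc7a2, the arginine importer, had 714, 552 and 626 CPM with TNF, against 7.50, 5.18 and 6.29 CPM with IFNg alone (6.63 ± 0.29, adjusted p = 4.67e-13). Ass1, which regenerates arginine from citrulline, had 351, 217 and 336 CPM with TNF, against 23.4, 20.4 and 31.3 CPM with IFNg alone (3.59 ± 0.31). Import, recycling and use of arginine were thus all read at higher levels in every TNF library. Gch1, the first enzyme of tetrahydrobiopterin, the synthase's cofactor, rose by 2.32 ± 0.29, whereas Qdpr, which recycles biopterin, fell (-1.23 ± 0.22). Srm, the spermidine synthase, fell (-2.52 ± 0.69).

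Prostaglandin and leukotriene genes counted 6 higher and 10 lower of 22 tested (27 in the tables; median -0.37). Ptgs2 (ENSMUSG00000032487, chromosome 1, 150100031 to 150108227), the inducible cyclooxygenase, had 5311, 6359 and 5871 CPM with TNF, against 21.7, 27.6 and 20.98 CPM with IFNg alone (7.96 ± 0.20, adjusted p = 3.46e-19). Ptges, the inducible prostaglandin E synthase, had 206, 214 and 198 CPM with TNF, against 0.156, 0.647 and 0.615 CPM with IFNg alone (8.80 ± 0.82). Pla2g4a, the phospholipase that frees arachidonic acid, rose by 1.81 ± 0.12. Pla2g7, which breaks down platelet-activating factor, rose by 3.32 ± 0.18. Ptgs1, the constitutive cyclooxygenase, had 0.222, 0.197 and 3.30 CPM with TNF, against 38.8, 55.1 and 42.5 CPM with IFNg alone (-5.33 ± 0.58, adjusted p = 1.2e-06). Hpgds, the prostaglandin D synthase (-3.34 ± 0.21), Tbxas1, the thromboxane synthase (-2.12 ± 0.12), Alox5, the 5-lipoxygenase (-4.36 ± 0.79), and Hpgd, which inactivates prostaglandins (-6.0 ± 0.58), fell.

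In the list of cystine, glutathione and NRF2 target genes 30 rose and 3 fell of 39 tested (median 1.93), which is 76.9% higher and 7.69% lower, beside 22.1% and 22.6% of all genes. Prdx1 (ENSMUSG00000028691, chromosome 4, 116685544 to 116700822), a peroxide-reducing enzyme, had 6688, 6137 and 6249 CPM with TNF, against 304, 251 and 327 CPM with IFNg alone (4.43 ± 0.12, adjusted p = 5.97e-20). Gclm, the modifier subunit of the enzyme that limits glutathione synthesis, had 526, 471 and 582 CPM with TNF, against 20.9, 32.1 and 23.8 CPM with IFNg alone (4.36 ± 0.24). Srxn1, which repairs peroxiredoxins, had 70.1, 60.01 and 64.9 CPM with TNF, against 2.35, 2.77 and 2.53 CPM with IFNg alone (4.67 ± 0.32). The groups were at least several-fold apart for all 3. Sod2, the mitochondrial superoxide dismutase (4.58 ± 0.15), Gsr, the glutathione reductase (3.69 ± 0.19), and Txnrd1, the thioredoxin reductase (3.45 ± 0.14), rose, as did Nfe2l2, which encodes the transcription factor NRF2 itself (1.52 ± 0.11), while its inhibitor Keap1 did not pass (0.31 ± 0.14). Gpx1, the cytosolic glutathione peroxidase, fell (-0.52 ± 0.13) although its groups overlapped, as did Cbr1, a carbonyl reductase (-1.85 ± 0.24).

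Promoter stretches with the core of the antioxidant response element, TGACNNNGC on either strand, are shown for 4 of the genes that rose. They are Gclm chr3:122245408-122245457 (plus strand), Txnrd1 chr10:82859099-82859148 (plus), Prdx1 chr4:116685451-116685500 (plus) and Nfe2l2 chr2:75704864-75704913 (minus), from RefSeq on GRCm38.p6, with the match in capitals.
Gclm: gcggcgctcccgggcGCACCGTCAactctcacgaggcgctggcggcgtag
Txnrd1: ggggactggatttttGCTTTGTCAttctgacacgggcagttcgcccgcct
Prdx1: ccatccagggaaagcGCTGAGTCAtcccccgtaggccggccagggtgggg
Nfe2l2: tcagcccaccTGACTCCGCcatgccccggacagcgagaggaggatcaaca
Of 35 list members with a promoter, the core was found in 9 of 26 that rose and in 2 of the 9 others. These counts cover the 250 bases before the start, where 13.9% of the promoters of all tested genes had the core.

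The list of pentose phosphate genes and other sources of NADPH for those enzymes split, with 6 higher and 5 lower of 17 (median 0.08). In the pentose phosphate pathway Pgd rose to 1778 ± 106 CPM with TNF, against 384 ± 30.2 CPM with IFNg alone (2.21 ± 0.12). G6pdx rose by 1.15 ± 0.10 and Taldo1 by 1.47 ± 0.18, while Rpia of the same pathway fell (-0.998). Outside that pathway Me1 rose (4.39), while Mthfd1 (-1.57) and the isocitrate dehydrogenases Idh1 (-0.94 ± 0.13) and Idh2 (-2.30 ± 0.21) fell. Heme and iron genes counted 12 higher and 6 lower of 24 tested (median 0.79), or 11 and 9 with RPKM totals. Fth1 (ENSMUSG00000024661, chromosome 19, 9980598 to 9985098), the ferritin heavy chain that stores iron, had 20231, 20784 and 29639.9 CPM with TNF, against 1869, 2357 and 1979.7 CPM with IFNg alone (3.51 ± 0.17, adjusted p = 9.07e-15). Hmox1, which breaks heme down, had 6451, 5888 and 5569.9 CPM with TNF, against 164, 152 and 164 CPM with IFNg alone. Both were far above IFNg in every TNF library. Slc40a1, the iron exporter (2.99 ± 0.23), Alas1, which starts heme synthesis (2.72 ± 0.11), and Blvrb, a biliverdin reductase (2.23 ± 0.19), rose. Cd163, the scavenger of haemoglobin, fell to 0.328 ± 0.301 CPM with TNF, against 4.95 ± 1.87 CPM with IFNg alone, and Steap3, an endosomal iron reductase, fell (-2.53 ± 0.17).

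Metallothionein and zinc transporter genes counted 10 higher and 4 lower of 20 tested (median 0.48). The metal-binding genes Mt2 (138, 68.8 and 97.3 CPM with TNF, against 6.62, 5.18 and 2.19 CPM with IFNg alone, 4.42 ± 0.43) and Mt1 (2.12 ± 0.47) rose, together with the zinc importer genes Slc39a4 (4.68 ± 0.54) and Slc39a14 (1.65 ± 0.28) and the exporter gene Slc30a1 (1.68 ± 0.19). The zinc importer gene Slc39a10 (-1.40 ± 0.19) and the transporter gene Slc30a5 (-1.26 ± 0.13) fell. The importer gene Slc39a8 fell as well (-2.70 ± 0.99, adjusted p = 0.0274), with an adjusted p of 0.0598 to 0.0964 without the first or second TNF or the first or second IFNg library and 0.13 with only the libraries of both groups. In the list of Atf4 targets and serine-folate enzymes 14 rose and 2 fell of 28 tested (median 1.04). Atf4, the factor of the amino acid response, rose to 592, 466 and 556 CPM with TNF, against 190.4, 165 and 196 CPM with IFNg alone (1.55 ± 0.12). Mthfd1l, a mitochondrial folate enzyme (3.42 ± 0.16), Ppp1r15a, which restores translation after stress (2.87 ± 0.19), and Trib3 (2.53 ± 0.27) rose, while Slc1a5, a glutamine transporter gene, fell (-1.86 ± 0.21) and Psat1, in serine synthesis, did not pass (0.03 ± 0.21).

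HIF subunit and oxygen sensor genes counted 9 higher and 1 lower of 15 tested (median 1.39). Hif1a (ENSMUSG00000021109, chromosome 12, 73901375 to 73947530), the oxygen-regulated subunit, had 1489, 1861 and 1659 CPM with TNF, against 304, 338 and 343 CPM with IFNg alone (2.35 ± 0.11, adjusted p = 3.01e-15). Egln3, an oxygen-dependent prolyl hydroxylase, had 38.7, 22.7 and 50.9 CPM with TNF, against 0.104, 1.24 and 0.889 CPM with IFNg alone (5.68 ± 0.73). P4ha2, which hydroxylates collagen (5.50 ± 0.45), and the histone demethylase gene Kdm6b (3.43 ± 0.17) rose as well, and Cited2, which competes with HIF for a coactivator, was the 1 that fell (-0.94 ± 0.26). Genes of glucose uptake and its first steps counted 9 higher and 4 lower of 18 tested (median 0.92), and 2 fell without the third IFNg library. The lactate exporter gene Slc16a3 had 1724, 1527 and 1500.3 CPM with TNF, against 94.5, 78.1 and 107 CPM with IFNg alone (4.09 ± 0.19), and the glucose transporter gene Slc2a1 1198, 1123 and 1106 CPM with TNF, against 70.0, 70.5 and 73.6 CPM with IFNg alone (4.0 ± 0.16). In both, the TNF libraries were more than an order of magnitude above the IFNg libraries. Hk2 (2.61 ± 0.13) and Hk1 (1.43 ± 0.13), hexokinase genes, rose, and Hk3 did not pass (0.22 ± 0.15). Pfkl (2.59 ± 0.22), the liver-type phosphofructokinase, rose and Pfkm (-1.43 ± 0.19), the muscle type, fell.

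Lipid genes counted 13 higher and 9 lower of 31 tested (median 0.79). Acsl1, which activates long-chain fatty acids, had 4046, 5019 and 4366 CPM with TNF, against 172, 203 and 225 CPM with IFNg alone (4.48 ± 0.14, adjusted p = 3.08e-19). Hilpda, an inhibitor of triglyceride breakdown, rose to 62.4 ± 6.99 CPM with TNF, against 0.743 ± 0.481 CPM with IFNg alone (6.35 ± 0.64). The uptake receptors Cd36 (1.91 ± 0.11) and Msr1 (1.79 ± 0.16) rose. Of the cholesterol exporters Abca1 rose (1.34 ± 0.17) while Abcg1 fell (-0.84 ± 0.13), and Scarb1, the HDL receptor, fell (-1.80 ± 0.13).

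Matrix proteases and their inhibitors counted 9 higher and 6 lower of 21 tested (37 in the tables; median 0.78), or 6 and 7 with RPKM totals. Mmp14, a membrane-bound metalloproteinase, had 288, 226 and 285 CPM with TNF, against 1.20, 2.41 and 1.85 CPM with IFNg alone (7.20 ± 0.38, adjusted p = 7.43e-12). Mmp12, the macrophage elastase (4.19 ± 0.21), and Plaur, the urokinase receptor (3.97 ± 0.17), rose, while Plau, urokinase itself (-1.16 ± 0.21), and Timp2, an inhibitor of metalloproteinases (-1.53 ± 0.24), fell. Serpins and related protease inhibitors counted 11 higher and 3 lower of 22 tested (68 in the tables; median 1.69). Slpi, a leukocyte protease inhibitor, had 132, 80.7 and 111 CPM with TNF, against 0.261, 0.353 and 0.205 CPM with IFNg alone (8.57 ± 1.03), far higher in every TNF library than in any IFNg library. Serpinb9, an inhibitor of granzyme B, rose by 4.69 ± 0.17, and Cst3, the secreted inhibitor cystatin C, fell (-1.17 ± 0.12). Cathepsins counted 4 higher and 6 lower of 14 tested (median -0.27), or 3 and 8 with RPKM totals, and 3 fell without the third IFNg library. The 4 and 6 are 28.6% and 42.9%, beside 22.1% and 22.6% of all genes tested. Ctsc, which activates granule proteases, rose to 10995 ± 917 CPM with TNF, against 4555 ± 67.4 CPM with IFNg alone (1.27 ± 0.11). Lgmn, the lysosomal legumain, fell to 473 ± 70.5 CPM with TNF, against 1713 ± 194 CPM with IFNg alone (-1.86 ± 0.13). Ctsb did not pass (0.03 ± 0.11) and was lower with RPKM totals (-0.29, adjusted p = 0.0151).

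Among Fc gamma receptor and complement genes 5 rose and 10 fell of 18 tested (23 in the tables; median -0.91). C3 (ENSMUSG00000024164, chromosome 17, 57203970 to 57228136), the central complement component, had 15134, 20006 and 19078 CPM with TNF, against 1409, 1622 and 2037 CPM with IFNg alone (3.42 ± 0.18, adjusted p = 8.5e-14). C1s1 (3.31 ± 0.21), C1ra (1.11 ± 0.14) and Cfb (2.88 ± 0.81), proteases of the classical and alternative pathways, rose. The 3 chains of C1q fell together, C1qa at -1.91 ± 0.13, C1qb at -1.59 ± 0.15 and C1qc at -1.88 ± 0.13. C1qa had 376, 353 and 308 CPM with TNF, against 1351, 1169.9 and 1379.8 CPM with IFNg alone. The antibody receptors Fcgr1 (-1.21 ± 0.11), Fcgr2b (-2.17 ± 0.21), Fcgr3 (-0.61 ± 0.11) and Fcgr4 (-1.62 ± 0.12) fell, while their shared signalling chain Fcer1g did not pass (0.10 ± 0.21).

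Pattern recognition genes counted 11 higher and 19 lower of 39 tested (median -0.45). Cd14 (ENSMUSG00000051439, chromosome 18, 36725067 to 36726798), the co-receptor for LPS, had 5049, 5877 and 5037 CPM with TNF, against 150.3, 151 and 142 CPM with IFNg alone (5.17 ± 0.15, adjusted p = 1.58e-19). Clec4e (ENSMUSG00000030142, chromosome 6, 123281789 to 123289870), the lectin Mincle, had 3230, 2716 and 2922 CPM with TNF, against 3.70, 6.06 and 3.69 CPM with IFNg alone (9.36 ± 0.26, adjusted p = 5.91e-18). Its neighbours Clec4d (5.63 ± 0.16) and Clec4n (8.38 ± 0.52) rose too, although similar sequences of these 3 genes could share reads. The cell-surface receptor Tlr2 rose (1.17 ± 0.12), whereas the endosomal receptors Tlr7 (-1.45 ± 0.19), Tlr8 (-2.17 ± 0.19), Tlr9 (-2.0 ± 0.22), Tlr11 (-4.78 ± 0.48) and Tlr12 (-3.72 ± 0.22) fell. Tlr9 had 202, 351 and 271 CPM with TNF, against 934, 1104 and 1251 CPM with IFNg alone. Tlr4 fell by less (-0.82 ± 0.15), and Ly86, the partner of the receptor Cd180, fell (-3.38 ± 0.13). Tlr3, a further endosomal receptor, did not pass (0.07 ± 0.19).

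Genes for the uptake of apoptotic cells counted 4 higher and 12 lower of 24 tested (median -0.51), or 2 and 13 with RPKM totals. Mertk, a receptor kinase for dying cells, had 465, 458 and 369 CPM with TNF, against 78.4, 77.2 and 73.7 CPM with IFNg alone (2.49 ± 0.12, adjusted p = 1.98e-15). Its ligands Gas6 and Pros1 went the other way: Gas6 had 11.9, 7.82 and 12.2 CPM with TNF, against 87.2, 63.05 and 65.4 CPM with IFNg alone (-2.76 ± 0.19). Pros1 had 9.67, 11.8 and 14.8 CPM with TNF, against 101, 120 and 97.4 CPM with IFNg alone (-3.14 ± 0.18). The receptor and its 2 ligands were thus separated in opposite directions. Axl, a related kinase (-0.74 ± 0.13), and Trem2, a lipid receptor (-2.63 ± 0.17), fell. Integrins and adhesion molecules counted 17 higher and 11 lower of 38 tested (median 0.32), with Icam1 (2.30 ± 0.12), Vcam1 (2.71 ± 0.37), Itga5 (2.01 ± 0.14) and Itgb2 (1.46 ± 0.10) higher and Itga6 (-2.31 ± 0.15), Itgb5 (-3.14 ± 0.14) and Pecam1 (-2.48 ± 0.40) lower. The 11 include Itgb3bp (-6.0), a binding partner of an integrin chain and not itself an integrin or adhesion molecule.

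**Figure D3:**
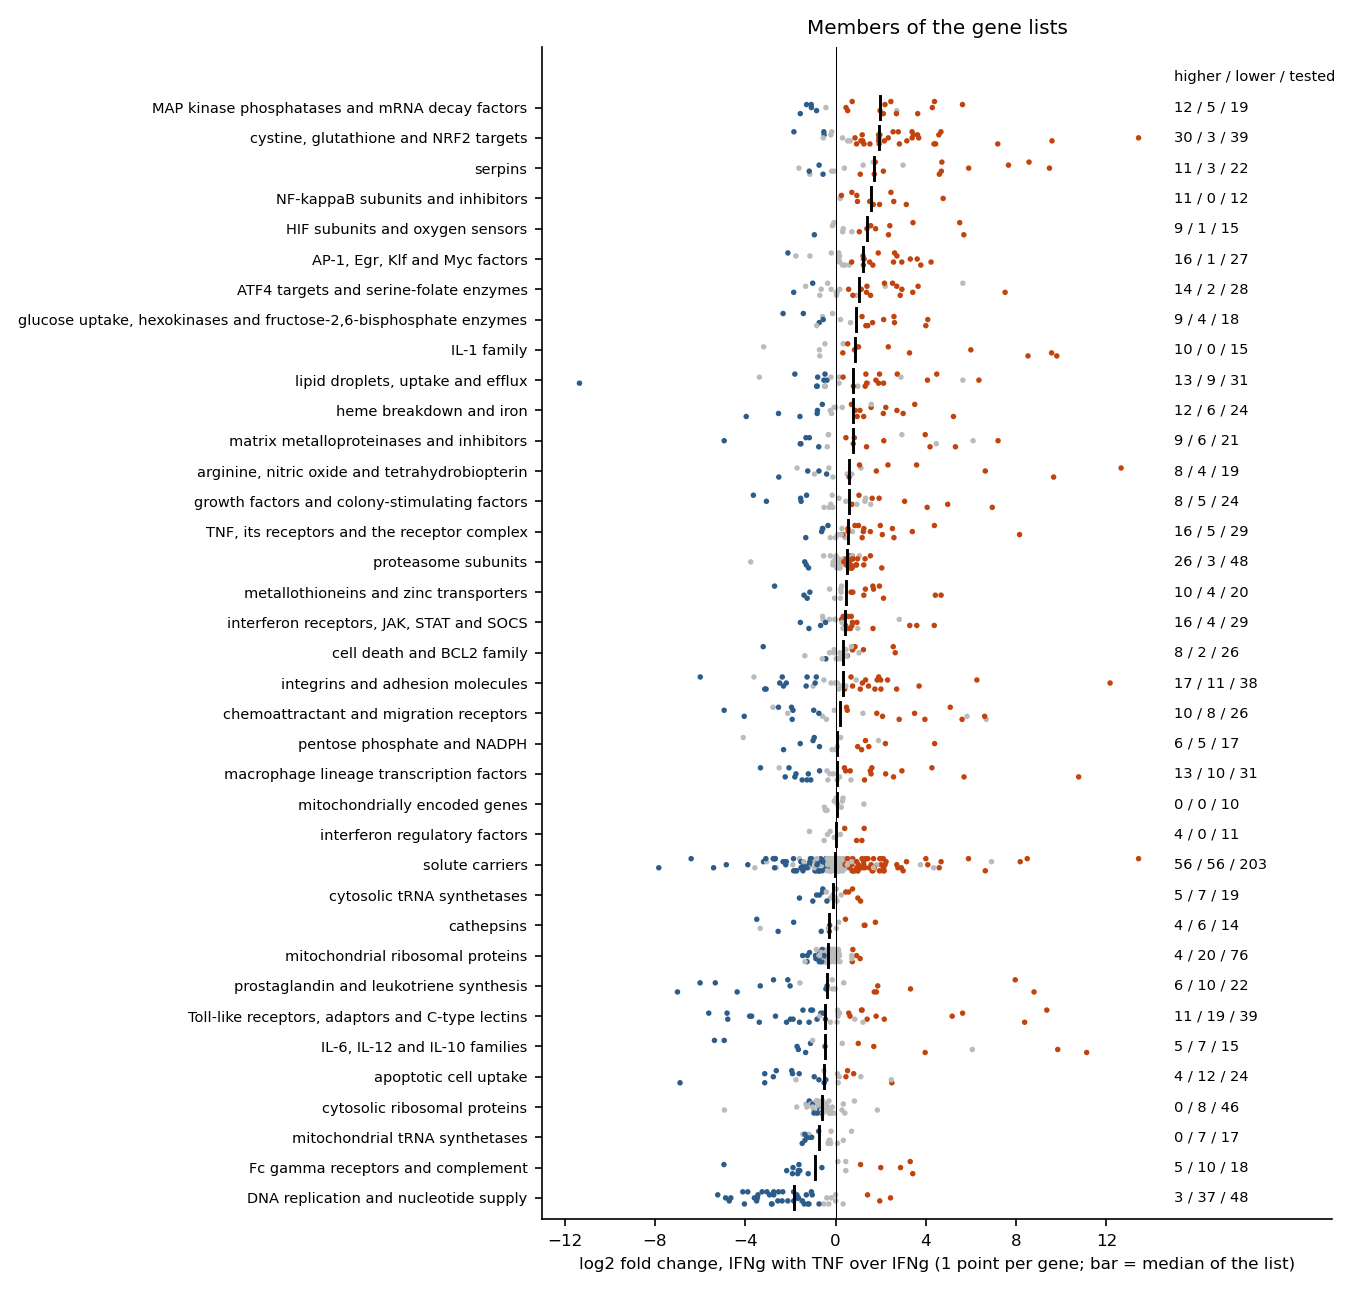
Log2 fold change of IFNg with TNF over IFNg for each tested member of 37 gene lists, 1 point per gene, with orange for higher, blue for lower and grey for not past adjusted p under 0.05; the black bar is the list's median and the figures at the right are members higher, lower and tested. Medians run from 1.97 for MAP kinase phosphatases and mRNA decay factors to -1.86 for DNA replication, beside -0.05 for all genes tested.

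DNA replication genes fell broadly: 37 of 48 were lower and 3 higher (median -1.86), or 77.1% lower and 6.25% higher, beside 22.6% and 22.1% of all genes. Mcm2, a subunit of the replicative helicase, had 1.39, 3.42 and 2.43 CPM with TNF, against 40.9, 33.9 and 43.6 CPM with IFNg alone (-4.04 ± 0.39, adjusted p = 5.23e-09). Rrm2, which supplies deoxynucleotides, had 2.39, 2.50 and 0.393 CPM with TNF, against 55.1, 47.2 and 40.8 CPM with IFNg alone (-4.71 ± 0.37). Pole, the leading-strand polymerase, fell to 5.37 ± 0.543 CPM with TNF, against 65.1 ± 3.65 CPM with IFNg alone (-3.60 ± 0.22). The 3 higher genes were Cdkn1a and Cdkn1b, inhibitors of cyclin-dependent kinases, and Ccnd2, a D-type cyclin. Cdkn1a had 378, 176 and 385 CPM with TNF, against 54.2, 70.3 and 48.9 CPM with IFNg alone (2.44 ± 0.46), with the second TNF library the lowest of its group and still above all IFNg libraries. Cdkn1b was at 1.42 ± 0.18 and Ccnd2 at 1.96 ± 0.31, while E2f1, a factor that starts the replication genes, did not pass (0.0 ± 0.18).

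Promoter stretches of 2 genes that fell, each with the E2F motif TTTCCCGC read on the opposite strand, are Cdc6 chr11:98907998-98908047 (plus strand) and E2f7 chr10:110745226-110745275 (plus), from RefSeq on GRCm38.p6, with the match in capitals. Cdc6, a loader of the replicative helicase, was at -4.87 ± 0.76 and E2f7, a repressor among the E2F factors, at -5.22 ± 0.54.
Cdc6: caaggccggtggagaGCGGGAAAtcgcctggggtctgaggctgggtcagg
E2f7: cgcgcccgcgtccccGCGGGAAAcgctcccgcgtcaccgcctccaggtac
Within the 250 bases before the start, the motif was found in 3 of 29 members that fell and 1 of the 8 others with a promoter. Over the same bases it was found in 2.1% of the 9180 promoters of tested genes. The shares that follow are for the whole promoter window, which adds the bases after the start, unless the 250 bases are named. The E2F motif was found in 4.68% of 556 promoters of genes at least 4-fold lower. It was found in 0.427% of 468 promoters of genes at least 4-fold higher and 2.48% of the 9180. Within the 250 bases these shares were 3.42%, 0.427% and 2.1%. The cell cycle element TTTGAA was found in 25.0%, 12.8% and 14.3% of the same sets, and in 19.2%, 11.5% and 12.7% within the 250 bases. The NF-kappaB motif was in 16.7% of the promoters of genes at least 4-fold higher, 12.6% of those at least 4-fold lower and 12.2% of all. The antioxidant core was in 21.8%, 15.1% and 17.0% of these sets, and in 17.5%, 13.5% and 13.9% within the 250 bases.

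Genes of protein synthesis and breakdown had list medians between -0.75 and 0.49. Of 48 proteasome genes 26 rose and 3 fell (median 0.49), or 16 and 8 with RPKM totals. Psmd10 (2.05 ± 0.17) and Psmb6 (1.54 ± 0.15) were among those that rose, while the interferon-induced catalytic subunits Psmb8 (-0.12 ± 0.11), Psmb9 (-0.10 ± 0.15) and Psmb10 (-0.23 ± 0.14) did not pass and were lower with RPKM totals (-0.44, -0.42 and -0.55). The 3 that fell, Psmg2 (-1.20 ± 0.34), Psmg3 (-1.30 ± 0.51) and Psmg4 (-1.37 ± 0.44), encode assembly chaperones. Psmg3 lost the call without any single TNF library or without the second or the third IFNg library (adjusted p 0.0528 to 0.149), and Psmg4 without the second TNF or the first IFNg library (0.0743 and 0.0606). Mitochondrial ribosomal protein genes counted 4 higher and 20 lower of 76, or 5.26% and 26.3%, against 22.1% and 22.6% of all genes tested (median -0.35), 3 and 36 with RPKM totals, and 12 lower without the second TNF library. Mitochondrial tRNA synthetase genes counted 0 higher in edgeR, at an unadjusted p under 0.05 and in DESeq2, and 7 lower of 17 (median -0.75), or 11 lower with RPKM totals, with Tars2 at -1.36 ± 0.21 and Lars2 at -1.28 ± 0.23. Cytosolic tRNA synthetase genes split, with 5 higher and 7 lower of 19 (median -0.13), or 4 and 11 with RPKM totals. Aars (1.11 ± 0.12) rose and Vars (-1.60 ± 0.16) fell, and Wars, which IFNg is known to raise, fell to 489 ± 23.3 CPM with TNF, against 805 ± 63.5 CPM with IFNg alone (-0.72 ± 0.11). Of 86 cytosolic ribosomal protein genes 46 were tested. None rose in edgeR, at an unadjusted p under 0.05 or in DESeq2, and 8 fell (median -0.62). The 8 are 17.4% of those tested, a smaller share than the 22.6% lower among all genes. With RPKM totals 17 fell, and 4 without the third IFNg library. These genes have near-identical copies, and 16 of the untested had 0 counts in both groups, so their counts are uncertain.

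Of 203 tested solute carrier genes (369 in the tables) 56 rose and 56 fell (median -0.04), or 47 and 74 with RPKM totals. Each count of 56 is 27.6% of those tested, near the 22.1% higher and 22.6% lower of all genes. Beside those already named, Slc7a8, a transporter of large neutral amino acids (2.76 ± 0.14), Slc15a3, a lysosomal peptide transporter (2.02 ± 0.12), and Slc28a2, a nucleoside importer (2.12 ± 0.14), rose. Slc46a3, a lysosomal transporter (-4.84 ± 0.22), Slc37a2, of the sugar-phosphate exchanger family (-2.21 ± 0.13), and Slc2a9, a urate transporter (-2.33 ± 0.24), fell.

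The 10 genes with the most counts took 11.1 to 13.1% of the total in TNF libraries and 8.79 to 9.39% in IFNg libraries. The 10 with the highest mean over the TNF libraries included, besides Fth1, Nos2 and C3, Acod1 (ENSMUSG00000022126, chromosome 14, 103046977 to 103056573), which makes itaconate, with 16483, 16719 and 16249 CPM with TNF, against 260.5, 302 and 291 CPM with IFNg alone (5.86 ± 0.16, adjusted p = 5.97e-20). Gbp2, a guanylate-binding protein, was also among them and rose by 0.65 ± 0.11, although related Gbp genes could share its reads. The invariant chain gene Cd74 did not pass (-0.12 ± 0.11) and was lower with RPKM totals (-0.44). The lysosomal gene Psap did not pass either (-0.27 ± 0.11, adjusted p = 0.0506), but fell with RPKM totals (-0.59), in DESeq2 (-0.25, adjusted p = 0.0415), with a replicate block (-0.27, adjusted p = 0.017), without the third TNF library (-0.38, adjusted p = 0.0113) and without the first IFNg library (-0.33, adjusted p = 0.0332).

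Levels in the other conditions were compared with those under TNF by direct tests between the groups. TNF and LPS differed for 2926 genes (25.3%), of which 1519 were higher with TNF (13.1%) and 1407 lower (12.2%). TNF and IL1b differed for 42.0% of the genes tested (2418 or 20.9% higher and 2442 or 21.1% lower), and TNF and hypoxia for 39.0% (2190 or 18.9% and 2324 or 20.1%). With RPKM totals 884 genes were higher and 2621 lower with TNF than with LPS, and 1521 higher and 3938 lower than with IL1b. Against LPS, 10 of 12 NF-kappaB subunit and inhibitor genes were higher with TNF, with a median of 1.20 (0.95 with RPKM totals). Nfkbie was at 312 ± 21.4 CPM with TNF, 46.8 ± 11.6 with LPS, 11.6 ± 1.94 with IL1b and 17.2 ± 4.84 with hypoxia (mean ± SD, n = 3), and its difference from LPS was 2.73 ± 0.27 on the log2 scale (adjusted p = 1.79e-07). Traf1 differed from LPS by 1.93 ± 0.27 and Tnfaip3 by 2.16 ± 0.13. Nos2 was at 20102 ± 1774 CPM with TNF, 3091 ± 425 with LPS, 1155 ± 165 with hypoxia and 198 ± 62.2 with IL1b, with a difference from LPS of 2.70 ± 0.22. Cd14 stood at 5321 ± 482 CPM with TNF, 653 ± 106 with LPS and 1171 ± 48.7 in the untreated control, so LPS and IFNg libraries were below the control and TNF libraries above it.

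Genes past the tests against both LPS and IFNg alone were ranked if the higher mean of TNF and LPS was at least 20 CPM. The largest excess over LPS among them was that of Trem1, a receptor that amplifies inflammation. It was at 26.01 ± 3.29 CPM with TNF and 0.589 ± 0.874 with LPS (5.40 ± 1.30, adjusted p = 0.00843). Bcar1, an adaptor of adhesion signalling (4.90 ± 0.83), Il1b (4.70 ± 0.36) and Adora2b, an adenosine receptor (4.33 ± 0.55), were also among the 5 with the largest excess. The largest deficits were those of Ighm (-3.13 ± 0.18), Sectm1a (-3.12 ± 0.24), Gpr155 (-3.0 ± 0.20), Rab3il1 (-2.78 ± 0.18) and Lrmp (-2.76 ± 0.23). By list, 22 of 39 NRF2 target genes were higher with TNF than with LPS and 2 lower (median 0.76; 20 and 2 with RPKM totals), and 27 of 48 DNA replication genes were lower and 2 higher (median -0.96; 33 and 2 with RPKM totals). Of 48 proteasome genes 4 were higher and 1 lower (median 0.04), but 2 and 9 with RPKM totals.

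Of 15 HIF subunit and oxygen sensor genes 1 was higher with TNF than with hypoxia and 6 lower (median -0.40). Slc2a1 was at 1142 ± 49.2 CPM with TNF and 811 ± 37.5 with hypoxia (0.49 ± 0.14, adjusted p = 0.00504). Hif1a was at 1669.7 ± 186 CPM with TNF and 366 ± 15.99 with hypoxia (2.19 ± 0.11, adjusted p = 1.47e-14). Of 39 NRF2 target genes 30 were higher with TNF than with hypoxia and 2 lower (median 2.06), and Prdx1 was at 267 ± 1.45 CPM with hypoxia. Of 10 tested mitochondrially encoded genes 7 were higher with TNF than with hypoxia (median 2.68), where the reads of overlapping transcripts cannot be told apart. Against IFNg alone 0 of these 10 genes rose and 0 fell (median 0.06), or 0 and 2 with RPKM totals. In that comparison 1 fell at an unadjusted p under 0.05 and 0 changed in DESeq2. Against LPS 0 were higher and 0 lower with TNF.

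**Figure D4:**
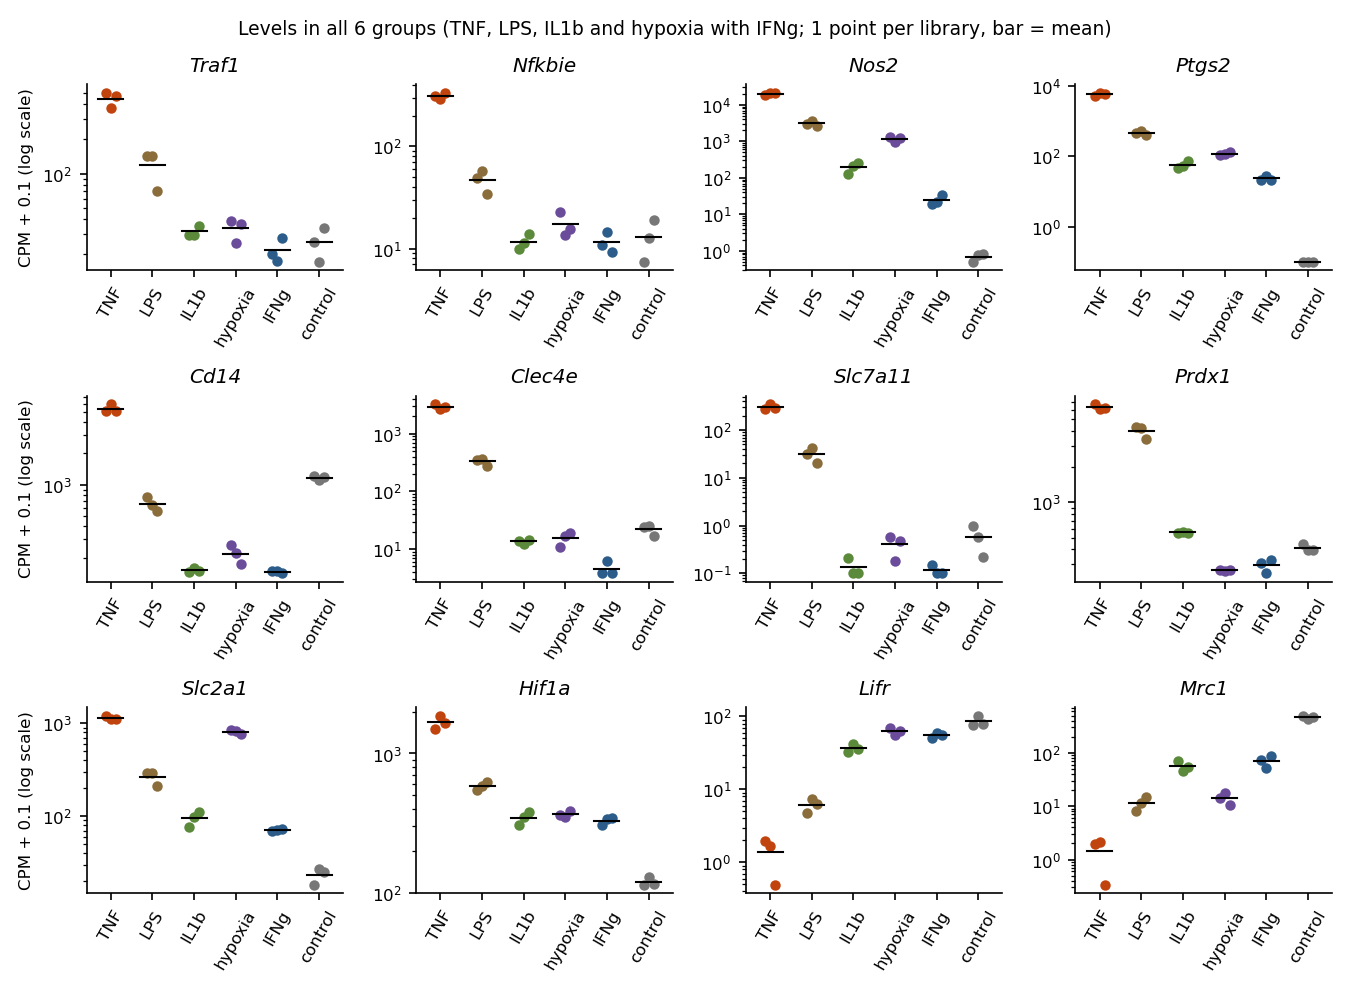
Level of 12 genes in all 18 libraries, as CPM + 0.1 on a log scale, 1 point per library with a bar for the group mean; TNF, LPS, IL1b and hypoxia stand for IFNg with that addition. TNF libraries are the highest for Traf1, Nfkbie, Nos2, Ptgs2, Cd14, Clec4e, Slc7a11, Prdx1, Slc2a1 and Hif1a and the lowest for Lifr and Mrc1.

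Markers of other cell types were set beside these results. The summed level of neutrophil and granulocyte precursor markers was 166 to 179 CPM with TNF and 275 to 299 CPM with IFNg alone, with 8 of 11 tested markers lower. Csf3r was at 157 ± 8.77 CPM with TNF and 174 ± 23.4 CPM with IFNg alone and did not pass (-0.15 ± 0.15; -0.46, adjusted p = 0.0156, with RPKM totals), while S100a9 fell (-2.88 ± 0.29), Ltf fell (-6.22 ± 0.47) and Elane had 0 counts with TNF. These markers fell beside the cell division genes, and their part in that result was not tested. Ighm (ENSMUSG00000076617, chromosome 12, 113418558 to 113422730), the immunoglobulin heavy chain, had 7.11, 11.7 and 9.11 CPM with TNF, against 530.5, 499.5 and 572 CPM with IFNg alone (-5.85 ± 0.20, adjusted p = 2.13e-17). Cd79b was lower too (-2.71 ± 0.55), and the defining B cell markers Cd79a, Ms4a1 and Pax5 had 0 counts in both groups.

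Sums of markers took in those with too few counts to test. The T cell markers summed to 4.16 to 7.67 CPM with TNF and 1.65 to 2.08 CPM with IFNg alone, with 1 of 3 tested, Cd247, higher (3.18 ± 1.22; adjusted p 0.0886 to 0.126 without the first TNF or the first or second IFNg library, and 0.0519 with RPKM totals). The dendritic cell markers summed to 46.9 to 61.8 CPM with TNF and 91.0 to 96.7 CPM with IFNg alone, with Ccr7 higher and Clec9a (-2.66 ± 0.27) and Bcl11a lower of 7 tested. Endothelial markers summed to 145 to 187 CPM with TNF and 38.6 to 61.9 CPM with IFNg alone: Kdr (1.80 ± 0.28) and Vwf (1.70 ± 0.18) rose, and Cdh5, at 0.201 ± 0.243 CPM with TNF and 0.968 ± 0.468 CPM with IFNg alone, did not pass. NK cell markers were at 0 counts with TNF and up to 1.20 CPM with IFNg alone, and the 1 tested was called lower (-6.3) at these levels near the floor. Fibroblast markers were at 6.5 to 6.91 CPM with TNF and 4.69 to 6.29 CPM with IFNg alone. None of the 5 erythroid markers had enough counts to test, with 1 count in all, in the second TNF library. Mast cell and basophil markers, 1 of 6 tested, summed to 2.50 to 4.24 CPM with TNF and 0.938 to 2.60 CPM with IFNg alone, so the groups overlapped, and megakaryocyte markers to 17.8 to 30.8 CPM with TNF and 21.8 to 28.9 CPM with IFNg alone. Of the 12 macrophage markers 3 rose and 6 fell, with Adgre1 (-0.73 ± 0.11) and Lyz2 (-0.61 ± 0.15) lower.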

How the data were processed

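Per the labels' protocols, total RNA was made into libraries with a stranded poly(A) mRNA kit and sequenced as single-end reads. Per the submitters' processing notes, the tools include GSNAP and the build is mm10; how reads were counted, with which annotation and whether by strand, is not given in these sources. The authors deposited 1 table per library with a read count, an RPKM value and a width for each of 22598 genes. Symbols were matched for 22457 gene identifiers from GENCODE M21, and 86.7% of the widths are multiples of 3, as coding lengths are. RPKM values were used only to recover the library totals of 1 alternative scaling.

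The deposited counts were tested in 1 fit of all 18 libraries with a mean per group, in edgeR 4.0.16 (TMM, filterByExpr, robust quasi-likelihood fit, R 4.3.3), with Benjamini-Hochberg adjustment over 11563 genes and a threshold of 0.05. Values as "a ± b" are log2 fold changes of IFNg with TNF over IFNg with their standard errors, unless CPM is named, when they are means with SDs of 3 libraries. Standard errors were taken from the fold change and its F statistic. DESeq2 1.42.0 and other alternatives are in the closing section. Depths ran from 12270565 to 20952799 counts; floors and counting intervals cover counting error only. Folds against a group at 0 used 3 counts over that group. Members and gene lists were chosen with earlier results of these data known. Named genes were the 10 largest and 10 smallest called changes at 20 CPM or more with groups that do not overlap, the 3 most changed each way per list, members of lists of up to 33 genes, the 10 highest in CPM with TNF, the 5 most different each way from LPS, and markers. Those most different from LPS were called against both LPS and IFNg alone and had at least 20 CPM in the higher of TNF and LPS. Other genes of larger lists, and those read in only 1 group, were chosen after their values were seen. Some genes that these rules name are not reported here. The fitting steps were tested on simulated data. Same-numbered libraries were not treated as pairs.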

Additional observations from a re-analysis of the deposited data

How the results depend on the processing

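The count of 5174 genes changed between IFNg with TNF and IFNg was 5016 to 5670 over the other settings that used all 6 libraries and 4556 to 4888 when 1 of the 6 was left out. For TNF against LPS the 2926 became 2168 with only the libraries of those groups and 2425 to 2746 with 1 library left out, for IL1b 4244 to 4629 and for hypoxia 3919 to 4179 with 1 left out. None of these moved a count of all changed genes, both directions together, by more than 1.5 times. By direction the counts moved further with RPKM totals. Against IFNg alone 2560 higher became 1685 and 2614 lower became 3985. Against LPS 1519 higher became 884 and 1407 lower became 2621. Against IL1b 2418 higher became 1521 and 2442 lower became 3938. Genes with 0 counts with IFNg alone numbered 49, and with 0 counts with TNF 36, when 10 counts were asked of every other library, and 10 and 5 when 100 were asked. With RPKM totals Ctsb turned to -0.287 and Nfkb1 to -0.060, each within the shift of -0.319 of all genes. Of 354 gene values, 337 kept direction and call with RPKM totals and 350 in DESeq2. With promoters cut to the 250 bases before the start, 15 motif values were labelled as moved and 9 as the same. The same-numbered TNF and IFNg libraries had correlations of deviations of 0.116, 0.0104 and 0.0266. The first and second TNF libraries correlated best with the same-numbered IFNg library, and the third with the second IFNg library (0.0603). The values are small and mixed and cannot settle whether the numbers mark pairs, and the numbers were not taken as pairs. A replicate block gave 5340 calls, of which 5116 were shared, 3112 against LPS, 5004 against IL1b and 4657 against hypoxia. Each count was above that without the block. The floor of 3 counts stood at 0.167 to 0.235 CPM with TNF and 0.156 to 0.205 CPM with IFNg alone. Small changes were not detectable in genes near it. Calls did occur there, as for the 1 tested NK cell marker, lower at 0 counts with TNF.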
